A study of Mus musculus with 2 samples.

Results

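The genes described here are the 10 members of the insulin-like growth factor (IGF) system that were chosen by name from the deposited gene table: the ligands Igf1 and Igf2, the receptors Igf1r and Igf2r, and the binding proteins Igfbp2 to Igfbp7. All 10 had a row among the 44792 rows of the table. RNA sequencing counts are available for a compressed culture of OCCM-30 cells and a control culture, 1 library per group, to set the compressed against the control transcriptome. OCCM-30 is an immortalized, cementoblast-like mouse line labelled wild type, and cementoblasts are the cells that deposit cementum on tooth roots. Both groups grew in medium with fetal bovine serum. The sources used here do not give how strong the force was or how long it lasted.

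IGF1 and IGF2 are secreted peptides that signal for growth and survival through the receptor tyrosine kinase IGF1R. IGF2R, which is also the cation-independent mannose 6-phosphate receptor, carries IGF2 and lysosomal enzymes into the endosomal system and is regarded as a clearance receptor for IGF2. IGF-binding proteins hold the ligands outside the cell, and in mineralized tissues they help to set how much ligand reaches the receptor. Serum also carries IGF peptides, which counts of mouse RNA do not measure.

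Library totals were 24296292 counts under force and 25049919 counts in the control. Of the rows, 14001 reached 1 CPM (CPM is the count scaled to library size) in either library and were compared, and their median log2 ratio was -0.01. Collagen, osteopontin, alkaline phosphatase and Runx2 counts were present, with 9 of 12 listed cementoblast and osteoblast markers above 1 CPM, while Ibsp and Cpne7, also on that list, had 0 counts in both libraries and Bglap had 12 against 11. Of these 9, 4 had an interval above 1 and 1 had an interval below 1, against 26.3% and 28.6% of all compared genes. The 1.5-fold limit was passed by 0 of the 9, against 11.0% of all compared genes. The marker with the interval below 1 was Runx2, at a ratio of 0.787 (0.757 to 0.819). Of the 23 listed markers of macrophages, epithelium, endothelium, muscle and fat, 6 reached 1 CPM and none of these 6 passed the 1.5-fold limit. Summed over each of the 4 marker lists, their levels were between 1.94 and 8.52 CPM in the compressed library and between 1.84 and 7.58 CPM in the control library. Des, a muscle marker, had 125 counts under force and 87 in the control, an interval above 1. Aif1, a macrophage marker below 1 CPM in both libraries, had 13 counts under force and 2 in the control, a ratio of 5.57 (1.52 to 61.2), while the macrophage markers Ptprc and Adgre1 (listed as Emr1) had 0 in both. The macrophage markers above 1 CPM had intervals that included 1, with ratios of 0.916 (0.579 to 1.44) for Csf1r and 1.08 (0.855 to 1.37) for Cd68. Itgam had 5 counts under force and 1 in the control, and its interval included 1. Des, Aif1, Csf1r, Cd68 and Itgam were named after their values were seen. The part of other cell types in the results was not tested. No p-value can be formed with 1 library per group. Ratios set the compressed library over the control library and come without any check by replicates. Their exact 95% binomial intervals describe counting error alone, so what is compared are these libraries rather than the conditions.

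The 10 genes fell into 7 that were detected in both libraries and 3 binding protein genes with 0 or 1 count, called undetected below. In the compressed library none of the 7 detected members stood 1.5-fold or more above or below the control library, and no ratio was formed for the other 3. By the 1.5-fold rule given below, 11.0% of all compared genes were called, so 0 of 7 does not set the members apart. Igf2 had the ratio farthest from 1, at 1.42, and Igfbp6, Igf1r and Igf2r had ratios between 1.10 and 1.16 with intervals above 1. Igf1, Igfbp4 and Igfbp7 had intervals that included 1. In these bulk cultures, a lower count from fewer expressing cells and one from less RNA per cell cannot be told apart.

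The binding protein genes divided by whether they were detected at all, so the 250 bases before the annotated start are shown for an undetected pair and a detected pair whose listed start is the outer end of the gene. The sequences are those of RefSeq for build GRCm38.p6, written 5′ to 3′ along the gene, with each CG dinucleotide in capitals.
Igfbp2, chr1:72824230-72824479, plus strand: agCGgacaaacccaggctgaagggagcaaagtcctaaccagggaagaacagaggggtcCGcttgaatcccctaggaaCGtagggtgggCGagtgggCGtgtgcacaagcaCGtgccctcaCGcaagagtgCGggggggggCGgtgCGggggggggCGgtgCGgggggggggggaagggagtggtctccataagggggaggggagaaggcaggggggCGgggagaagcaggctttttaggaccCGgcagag
Igfbp5, chr1:72874866-72875115, minus strand: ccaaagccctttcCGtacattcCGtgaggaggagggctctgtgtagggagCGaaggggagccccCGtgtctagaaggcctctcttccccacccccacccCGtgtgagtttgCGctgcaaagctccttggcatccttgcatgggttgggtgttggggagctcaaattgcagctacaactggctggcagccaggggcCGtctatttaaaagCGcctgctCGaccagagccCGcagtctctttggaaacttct
Igfbp6, chr15:102143936-102144185, plus strand: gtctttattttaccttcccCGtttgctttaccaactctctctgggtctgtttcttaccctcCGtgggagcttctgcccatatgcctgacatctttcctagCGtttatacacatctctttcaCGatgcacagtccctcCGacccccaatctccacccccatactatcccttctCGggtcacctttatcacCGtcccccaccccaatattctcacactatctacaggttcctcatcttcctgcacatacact
Igfbp7, chr5:77408046-77408295, minus strand: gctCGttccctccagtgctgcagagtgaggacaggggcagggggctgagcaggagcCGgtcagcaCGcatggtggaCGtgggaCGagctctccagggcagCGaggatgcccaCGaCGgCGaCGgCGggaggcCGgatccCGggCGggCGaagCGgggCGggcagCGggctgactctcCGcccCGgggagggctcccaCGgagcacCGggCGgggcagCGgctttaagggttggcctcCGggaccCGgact
The undetected pair held 14 CG dinucleotides at Igfbp2 and 10 at Igfbp5, and the detected pair held 7 at Igfbp6 and 26 at Igfbp7, so the numbers of the pairs overlapped. The windows of Igfbp3, which was not detected, and of Igfbp4, which was, held 32 and 22, although a further transcript of each starts outside its listed window. Over the whole table, the median was 16 CG dinucleotides in 11138 windows of mRNA genes at 1 CPM or more in either library, against 2 in 5485 windows of mRNA genes with 0 counts in both libraries.

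The same windows were searched on both strands for ACGTG and GCGTG, the core letters of hypoxia response elements. At the outer start of Igfbp2 there were 2 matches to ACGTG, which overlap in a single palindrome, and 2 to GCGTG. The window of Igfbp7 held 1 match to each, and those of Igfbp5 and Igfbp6 held 0 of either. The Igf2r window held 4 matches to ACGTG and 2 to GCGTG, and the Igf1r window held 0 and 3. Of all 14 listed windows of the 10 members, 4 held ACGTG, 6 held GCGTG and 7 held neither. Among all 32851 listed windows of this length, 16.6% held ACGTG and 28.2% held GCGTG, and among windows of mRNA genes at 1 CPM or more these shares were 21.7% and 45.3%. A match describes the letters and is no measure of binding.

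Igfbp2, which binds IGF2 with high affinity, had 0 counts under force and 0 in the control. Igfbp3, which codes for the main IGF carrier of serum, also had 0 counts under force and 0 in the control. Igfbp5, a binding protein of bone and connective tissue matrix that is often abundant in osteoblasts, had 1 count under force and 0 in the control. With 3 counts taken as the limit, a count of 0 leaves room for a level of up to 0.124 CPM under force and 0.12 CPM in the control, and no fold is given for these genes.

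Igfbp2 lies on chromosome 1 at 72824480 to 72852474 and Igfbp5 at 72858065 to 72874865, with 5590 bases and no other gene of the RefSeq table between them. Igfbp3 lies on chromosome 11 at 7206086 to 7215498, and the span of Igfbp1, at 7197787 to 7202546, ends 3539 bases before it. Igfbp1, a binding protein made mainly by liver, was looked up as the neighbour of Igfbp3 after the values were seen and also had 0 counts in both libraries. Igfbp1 with Igfbp3, and Igfbp2 with Igfbp5, thus formed adjacent pairs in which no gene had more than 1 count in either library. Rows without counts were common, since only 22774 of the 44792 rows had a count in either library. Those rows include noncoding genes, while these pairs are mRNA genes, and the share among mRNA genes alone was not counted. Whether neighbours shared this state more often than other genes was not tested. Neighbours did not always match, since Ins2, an insulin gene 11839 bases from the detected Igf2 and also looked up afterwards, had 0 counts in both libraries. The detected binding protein genes lie apart, Igfbp4 on chromosome 11 at 99040005 to 99052655, Igfbp6 on chromosome 15 at 102144186 to 102149512 and Igfbp7 on chromosome 5 at 77349240 to 77408045.

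**Figure D1:**
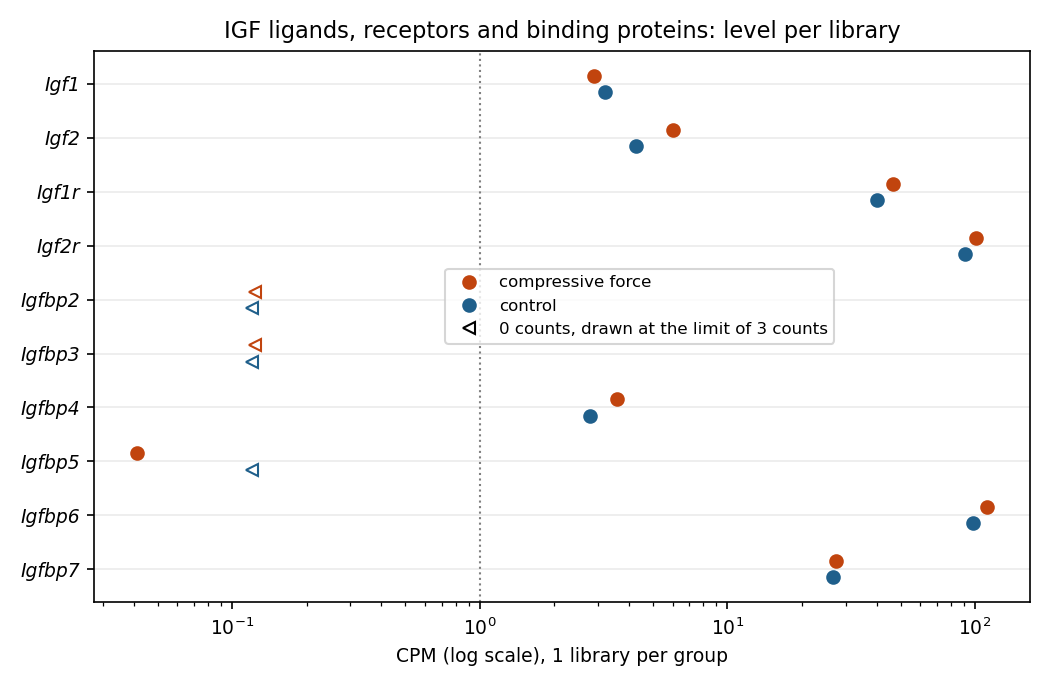
Level of each of the 10 IGF genes in CPM on a log axis, with the compressed library (upper point) above the control library (lower point) in each row and 1 library per group. Filled points are measured levels, and open triangles mark libraries with 0 counts, drawn at the limit of 3 counts (0.124 and 0.12 CPM). For Igfbp5 the filled point of the compressed library (1 count, 0.0412 CPM) thus lies left of the control triangle, although the control had 0 counts. Igfbp2, Igfbp3 and Igfbp5 lie left of the 1 CPM line. The points of every other gene lie close together to its right.

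Among the detected binding proteins, Igfbp6 had 2708 counts under force and 2469 in the control, or 112 and 98.5 CPM. IGFBP6 prefers IGF2 over IGF1 as its ligand. Its ratio was 1.13, with a counting interval of 1.07 to 1.20. Igfbp7, a related protein of the extracellular matrix that binds IGFs weakly, had 666 counts under force and 670 in the control, or 27.4 and 26.7 CPM, and the ratio was 1.03 with limits of 0.920 and 1.14. The levels of Igfbp7 were thus indistinguishable within counting error, and 90.4% of the compared genes had a larger absolute log2 ratio.

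Igfbp4, whose product is the main substrate of the protease pappalysin 1, had 87 counts under force and 70 in the control, or 3.58 and 2.79 CPM. Its ratio was 1.28, and its interval of 0.925 to 1.78 included 1. A difference of Igfbp4 was not detectable at this depth. The end of Igfbp7 overlaps 89 bases of the span of Polr2b, a subunit of RNA polymerase II with 3737 counts under force and 4267 in the control, and the treatment of reads in such overlaps is not given.

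The ligand Igf2 had 147 counts under force and 107 in the control, or 6.05 and 4.27 CPM. The ratio of 1.42 had an interval of 1.10 to 1.84 and stayed short of the 1.5-fold limit. Of the compared genes, 16.6% had a larger absolute log2 ratio than Igf2. Igf2 is a fetal growth factor expressed from the paternal allele, on chromosome 7 at 142650768 to 142666816. Mir483, a microRNA precursor inside its span, and Igf2os, its antisense gene, had 0 counts in both libraries. H19, the maternally expressed noncoding RNA of the same imprinted locus, had 3 counts under force and 2 in the control and was looked at after its values were seen.

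Igf1, the growth-hormone-regulated ligand, had 70 counts under force and 80 in the control, or 2.88 and 3.19 CPM. It lies on chromosome 10 at 87858265 to 87937047. The ratio was 0.904, with limits of 0.646 and 1.26, so neither a decrease nor an increase was detectable at these counts. In counts, Igf2 stood at 2.10 times Igf1 in the compressed and 1.34 times Igf1 in the control library, a double ratio of 1.57 with an exact conditional interval of 1.02 to 2.41. This double ratio does not depend on how the libraries are scaled.

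The receptor Igf1r had 1134 counts under force and 1005 in the control, or 46.7 and 40.1 CPM. Its ratio was 1.16 with an interval of 1.07 to 1.27, and it lies on chromosome 7 at 67952257 to 68233668. Igf2r had 2452 counts under force and 2290 in the control, or 101 and 91.4 CPM, and its ratio was 1.10 with an interval of 1.04 to 1.17. The double ratio of Igf1r over Igf2r was 1.05, and its interval of 0.95 to 1.17 included 1.

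Igf2r lies on chromosome 17 at 12682406 to 12769706, and 28396 bases of its span are shared with Airn. Airn is a noncoding RNA transcribed antisense to Igf2r, and in mouse development its transcription silences the paternal Igf2r allele. It had 491 counts under force and 518 in the control, so that the ratio was 0.978 (0.863 to 1.11). The double ratio of Igf2r over Airn was 1.13, and its interval of 0.984 to 1.30 included 1. The strand setting of the count is not given, so reads in the shared stretch could belong to either gene and both counts are uncertain.

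**Figure D2:**
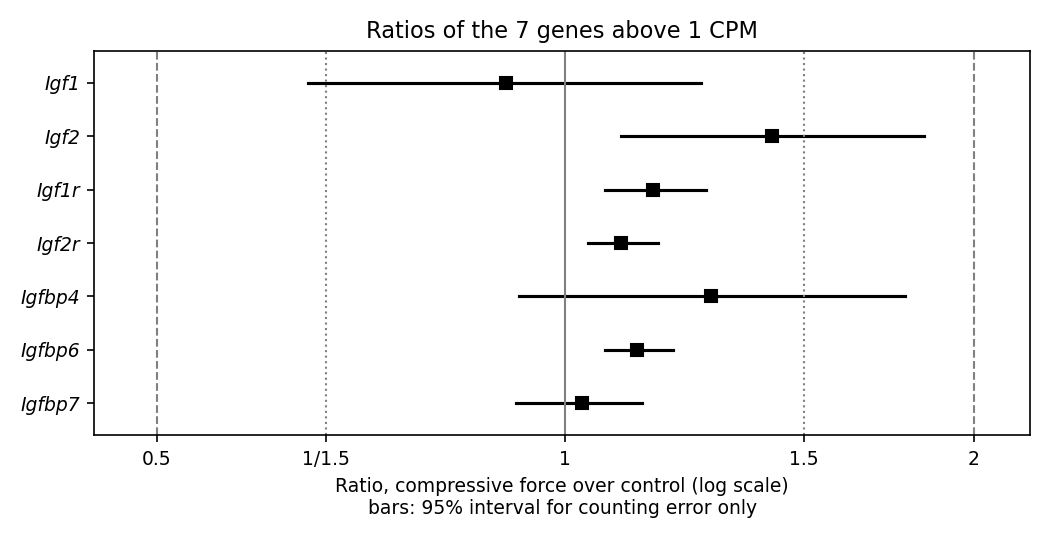
Ratio of the compressed over the control library for the 7 IGF genes above 1 CPM, on a log axis, with squares for the ratio and bars for the 95% interval of counting error. Dotted lines mark 1.5-fold and dashed lines 2-fold in each direction; all 7 squares lie between the dotted lines, and the bars of Igf2, Igf1r, Igf2r and Igfbp6 lie above 1.

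A 2-fold rule required 1 CPM in either library, a ratio that was 2 or more or else 0.5 or less, and an interval without 1. By this rule 0 of the 7 detected members were called, against 3.99% of all compared genes in either direction. By the same rule at 1.5-fold, 0 of 7 were called, against 11.0% of all compared genes. Over all compared genes 429 were called 2-fold higher and 130 lower, or 327 and 206 after a loess fit of the ratio on abundance, and the counts of members stayed at 0. The other 3 members did not reach 1 CPM. The interval alone lay above 1 for 4 of the 7, against 26.3% of all compared genes, and below 1 for 0 of the 7, against 28.6%. In either direction that was 4 of 7, near the 54.9% of all compared genes. The median log2 ratio of the 7 was 0.18, with a range of -0.15 to 0.50, beside -0.01 over all compared genes.

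**Figure D3:**
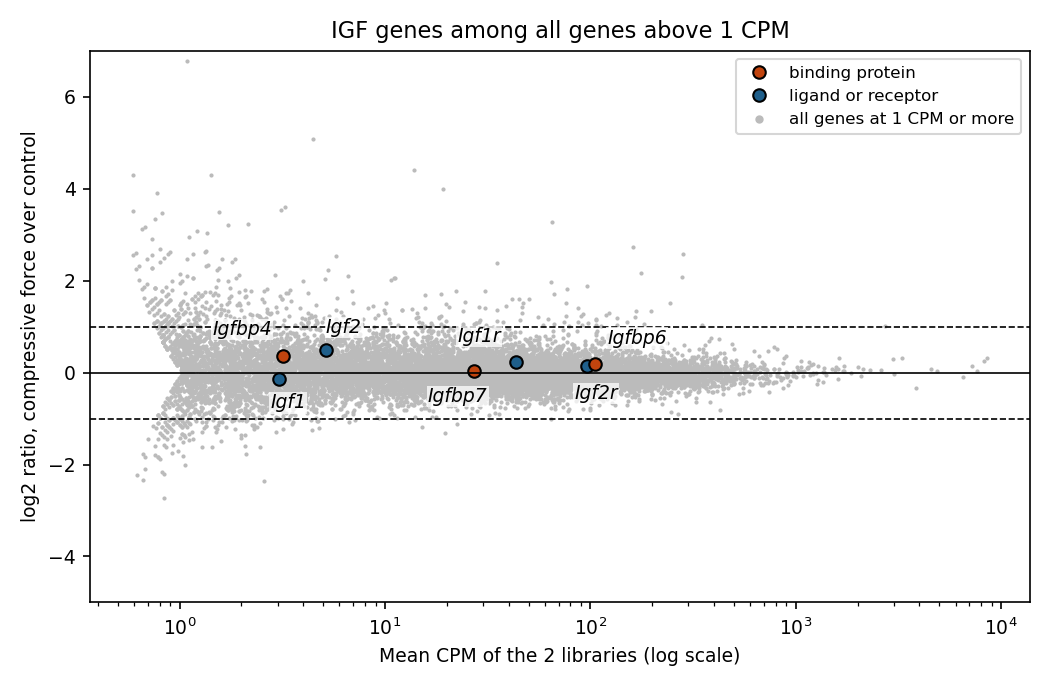
log2 ratio of the compressed over the control library against the mean CPM of both libraries (log axis) for all 14001 compared genes in grey, with binding proteins and ligands or receptors of the IGF system as large points. Dashed lines mark 2-fold, and the 7 IGF genes lie inside the dense band of genes, from -0.15 for Igf1 to 0.50 for Igf2.

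The detected members were also set against each other within each library. Of 21 pairs, 2 had a double ratio whose interval left out 1, and these intervals are not adjusted for the number of pairs. They were Igf2 over Igf1, given above, and Igf2 over Igfbp7, at 1.38 with an interval of 1.04 to 1.83. Igf2 over Igfbp6, whose product prefers IGF2 over IGF1, had a double ratio of 1.25 (0.964 to 1.63). Igf2 over Igf2r had 1.28 (0.987 to 1.67). Igf2r over Igfbp6, the pair with the most counts, had 0.976 (0.901 to 1.06). Counts of different genes also depend on transcript length, which is not in the files, so the members were not ranked by level.

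The other genes of the pathway were counted in 8 lists with 108 genes in the table, of which 89 reached 1 CPM. By the 2-fold rule 2 of the 89 were called higher and 0 lower, against 3.06% and 0.929% of all compared genes. By the 1.5-fold rule 6 were called higher and 1 lower, against 7.31% and 3.71%. The median log2 ratio of the 89 was 0.01. The lists were written with earlier results of these data known, Stc1 among them, and are no independent evidence.

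The list of other IGF family genes had 5 of 12 genes above 1 CPM and 0 called by either rule. The highest was Insr, the insulin receptor, which can pair with IGF1R in hybrid receptors and whose short isoform binds IGF2. Insr had 3480 counts under force and 2527 in the control, so that the ratio was 1.42 (1.35 to 1.5). Its double ratio over Igf1r was 1.22 with an interval of 1.10 to 1.35. The choice of Insr as the highest of its list favours a value above 1. The pair was added outside the pairs of members, without adjustment, and is no independent evidence of a difference between Insr and Igf1r. The lowest was Igflr1, with 84 counts under force and 122 in the control and a ratio of 0.712 (0.532 to 0.946). Igflr1 was placed in this list although it is not a receptor of IGF1 or IGF2.

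IGFBP proteases and their inhibitors had 11 of 15 genes above 1 CPM. Stanniocalcin 1 (Stc1), a secreted inhibitor of pappalysins, was the gene called in this list, with 881 counts under force and 57 in the control and a 15.8-fold higher level (12.2 to 21.2). Genes of this list named after their values were seen were the pappalysins and Stc2. Pappa had 5 counts under force and 4 in the control, below 1 CPM. Pappa2 had 159 counts under force and 174 in the control, a ratio of 0.943 (0.756 to 1.18). Stc2, the paralogue of Stc1 and also a pappalysin inhibitor, had 208 counts under force and 199 in the control, a ratio of 1.08 (0.884 to 1.32). The list median log2 ratio was 0.09.

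Of the receptor substrates and adaptors, 18 of 19 genes reached 1 CPM, and 1 was called higher and 0 lower by the 2-fold rule. That gene was Grb10, an imprinted adaptor that restrains insulin and IGF1 receptor signalling, with 39 counts under force and 16 in the control and a ratio of 2.47 (1.37 to 4.82). By the 1.5-fold rule 3 were higher and 1 lower, and those other than Grb10 are named after their values were seen. Grb14, an adaptor related to Grb10, had 54 counts under force and 31 in the control and a ratio of 1.79 (1.14 to 2.89). Sh2b2, an adaptor of receptor tyrosine kinases, had a ratio of 1.58 (1.35 to 1.87). Irs1, the docking protein that links the activated receptors to phosphoinositide 3-kinase, had 2434 counts under force and 4119 in the control and a ratio of 0.610 (0.580 to 0.641). Its paralogue Irs2, likewise picked with its values in view, had 1716 counts under force and 1787 in the control and a ratio of 0.991 (0.927 to 1.06).

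Downstream of the receptor, 26 genes of the PI3K, AKT, FOXO and mTOR branch had a median log2 ratio of 0.02, with 0 called by the 2-fold rule and 1 higher at 1.5-fold. This gene was Foxo3, a transcription factor that AKT keeps out of the nucleus, with 2335 counts under force and 1268 in the control and a ratio of 1.90 (1.77 to 2.04). The lowest was Pik3r1, the p85 alpha regulatory subunit of PI3K, at 0.700 (0.657 to 0.746). The 13 genes of the RAS and MAPK branch had a median of -0.01, and Mapk3, which codes for the kinase ERK1, passed the 1.5-fold limit at 1.53 (1.45 to 1.62). Map2k2, a kinase upstream of it, was the lowest at 0.838 (0.782 to 0.898). Its paralogue Map2k1, picked with its values in view, went the other way at 1.41 (1.34 to 1.49).

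Genes that act around the ligands and Igf2r had 0 calls with TMM scaling. IGF2 mRNA-binding proteins and RNAs of the IGF loci had 4 of 8 genes above 1 CPM and a median log2 ratio of -0.15. Igf2bp2 was their highest at a ratio of 1.10 (1.05 to 1.14). Igf2bp3 was their lowest, with 989 counts under force and 1528 in the control and a ratio of 0.668 (0.616 to 0.724), just inside the lower 1.5-fold limit of 0.667. With DESeq2 size factors its ratio was 0.662, past that limit. Growth hormone axis genes, which control Igf1 in liver, had 4 of 6 genes above 1 CPM, from the transcription factor Stat5a at 1.02 to its paralogue Stat5b at 1.07, and a median of 0.05. Mannose 6-phosphate sorting genes had a median of -0.07 over 8 genes, from Nagpa, the enzyme that uncovers the mannose 6-phosphate tag, at 0.736 (0.659 to 0.822) to the adaptor Gga1 at 1.11 (1.03 to 1.21).

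**Figure D4:**
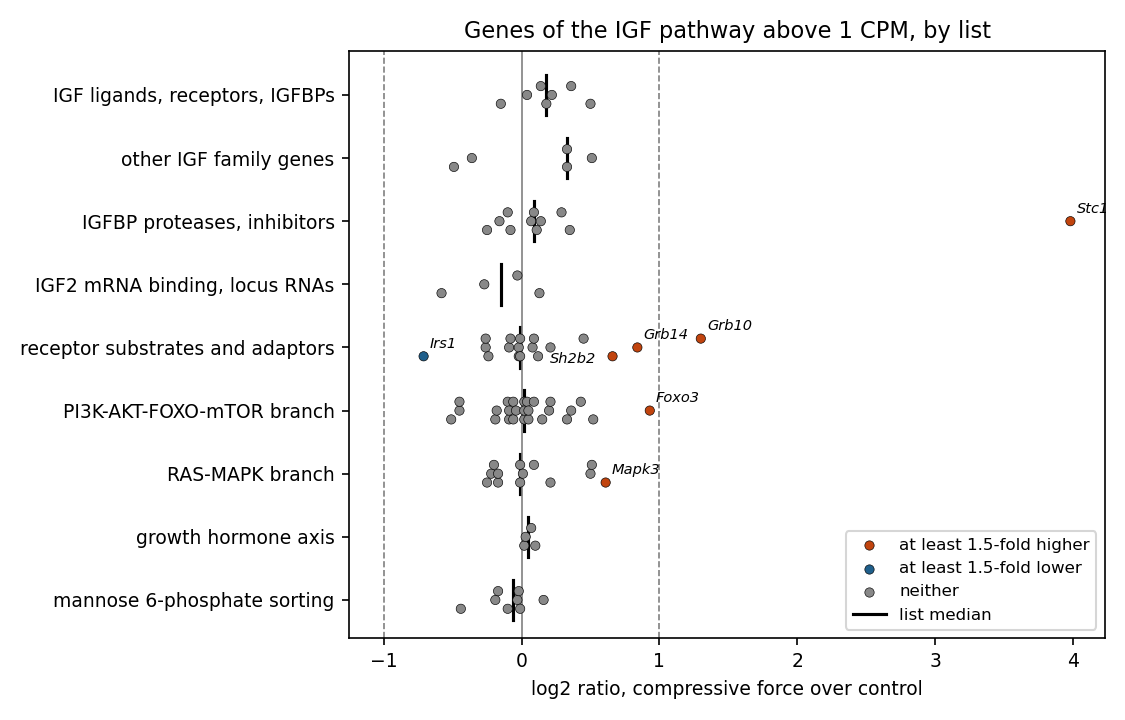
log2 ratio of the compressed over the control library for the IGF genes (top row) and the 8 pathway lists, with a point for each gene above 1 CPM and a bar for the list median; dashed lines mark 2-fold. Points past 1.5-fold are coloured and named, from Irs1 at -0.71 to Stc1 at 3.98, and the top row has none.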

How the data were processed

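RNA was sequenced from 1 compressed and 1 control OCCM-30 culture, grouped by the treatment label. The deposited table holds whole-number read counts per gene with no normalization. Per the submitters' processing notes, the data went through HISAT2, a spliced aligner, and mouse build GRCm38. The sources used here do not give the tool that counted the reads, its annotation and strand setting, or what was done with reads of several alignments.

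Totals were scaled with TMM factors from edgeR 4.0.16 (R 4.3.3), and CPM and ratios were computed from the deposited counts, with a prior count of 0.5 for the ratio. Intervals are exact 95% Clopper-Pearson intervals from scipy 1.17.1. The edgeR quasi-likelihood test cannot be run with 1 library per group. The intervals treat reads as independent molecules, which they are not. Intervals and limits cover counting error only and may be too narrow even for that. The interval and calling code was tested on simulated counts.

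The members and lists were chosen with earlier results of these data known. The naming rule took all members, each list's genes past 2-fold or otherwise its highest and lowest gene, and genes overlapping a member; others are said to be named after their values were seen. Igf1os overlaps Igf1, Gm51487 and Gm51488 overlap Igf1r, and Gm34648 overlaps Igfbp7. These noncoding genes had no row under these symbols, so no counts are given for them. Of the listed symbols, 4 were matched by an older symbol. Positions and sequences come from RefSeq (GRCm38.p6). Alternatives were 3 other scalings (total counts, DESeq2 1.42.0 size factors, upper-quartile factors), a loess fit (span 0.4), other CPM minimums, a prior count of 5 and widened intervals.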

Additional observations from a re-analysis of the deposited data

How the results depend on the processing

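Every detected member kept its direction under total-count, DESeq2 and upper-quartile scaling, the loess fit and a prior count of 5, and all 35 recomputed log2 ratios of the 7 detected members stayed inside their counting intervals. The TMM factors were 0.9996 under force and 1.0004 in the control, so total counts were nearly the same setting. The 35 values are thus a weak check. Igf2 ranged from 0.43 to 0.51, Igf1 from -0.24 to -0.14 and Igfbp4 from 0.27 to 0.37. No setting gave a member past 1.5-fold. With intervals widened for an assumed coefficient of variation between cultures of 0.1 or 0.2, 0 members instead of 4 had an interval above 1, so these 4 rest on counting error alone. Only 5 and 4 members reached a CPM minimum of 5 and of 20.

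Among the pathway genes outside the members, 1 instead of 2 was called 2-fold higher at a minimum of 5 or 20 CPM, because Grb10 lies below both. At 20 CPM, 3 instead of 6 were 1.5-fold higher, and with a coefficient of 0.2 there were 3 higher and 0 lower. DESeq2 size factors gave 2 lower at 1.5-fold instead of 1, with Igf2bp3 added to Irs1. No paired analysis was possible because each group has 1 library, and for the same reason no library could be left out. Over all compared genes, a minimum of 5 CPM left 154 called 2-fold higher and 12 lower, and a coefficient of 0.1 left 1328 intervals above 1 and 862 below, against 3682 and 4008 with counting error alone. Depth limits Igfbp2, Igfbp3 and Igfbp5 most, with 0 or 1 count and no upper limit to their ratios, and among the 7 detected members Igf1 and Igfbp4, whose intervals run from 0.646 to 1.26 and from 0.925 to 1.78.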
